A study of Mus musculus with 6 samples.

Results

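Complement is a cascade of secreted proteins that tags targets for removal by phagocytes. In the classical pathway, C1q binds a target, C4 and C2 then form an enzyme on it, and that enzyme cuts C3, whose fragments are read by receptors on immune cells. In the brain, microglia are known as the main source of C1q, and C1q and C3 are known for their part in the removal of synapses. The genes described here are C1qa, C1qb and C1qc, which encode the 3 chains of C1q, C4b and C3, which encode the central components downstream of it, and C3ar1 and C5ar1, which encode the receptors for the small fragments C3a and C5a. They were chosen by gene symbol, and all 7 were among the 15388 genes of the deposited table.

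RNA came from the hippocampus of tamoxifen-induced mice that carried both Cx3cr1-Cre/Ert2 and NuTRAP, a reporter that places an EGFP-tagged ribosomal protein on ribosomes of recombined cells. Homogenate from each animal was cleared, a part was kept as the Input fraction, and ribosomes pulled down with an antibody to GFP gave the Positive fraction (translating ribosome affinity purification). The 3 animals, numbered 201, 207 and 208, gave 1 Input and 1 Positive library each, so both groups shared genotype, treatment and mice, and no untreated or Cre-negative group is part of these libraries. The Cx3cr1 promoter that drives the Cre is active in microglia, and also in macrophages at the borders of the brain. The animals were about 3 months old at induction, and the study collected brains several weeks later, when circulating monocytes that had recombined would have been replaced. Since whole fractions were sequenced, fewer cells of a type and less RNA per cell cannot be told apart, and neither can more transcript and more ribosomes on it in the Positive fraction.

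Reads counted over the 15388 genes came to 14879734 to 17757918 per library. Values are scaled reads, that is, reads of a gene divided by a size factor for the library. Fold changes are Positive over Input from edgeR's quasi-likelihood test on 15344 genes, given as log2 with an approximate standard error (SE). The SE of these fits is the absolute log2 fold change divided by the square root of the test's F statistic. A gene was called where the Benjamini-Hochberg adjusted p over those genes was under 0.05. Of all genes tested, 46% were called, 24% higher and 22% lower in Positive, and with total counts in place of size factors the share of calls that were higher went from 52.1% to 41.6%. The microglial marker list checked the label, since all 10 of its genes were called higher, with a median log2 fold change of 4.69 against -0.01 over all genes. The Positive library of animal 208 stood apart from the other Positive libraries, with microglial markers lower by a median of 0.40 (log2, -0.40) endothelial markers by 0.82 (-0.82) and astrocyte markers by 0.51 (-0.51), and neuronal markers higher by 0.24.

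Of the 7 genes, 6 were called higher in Positive and 1, C3, was not called, beside 24% of all genes called higher. The C1q chains and both receptors had log2 fold changes of 4.17 to 4.77, up to 27.4-fold for C1qc, and these 5 were also the ones over 5-fold, which 3.75% of all genes were. C4b was higher by only 1.44-fold. In 5 of the 7, every Positive library lay above every Input library, as it did in 29% of all genes, and in 0 of the 7 did every Positive library lie below, as in 27.6% of all genes. C3, C3ar1 and C5ar1 were kept in the deposited table through the Positive fraction alone, since not all of their Input libraries had at least 20 reads. A gene kept that way was selected for its higher Positive values, so the counts over these 7 genes describe them and support nothing.

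**Figure D1:**
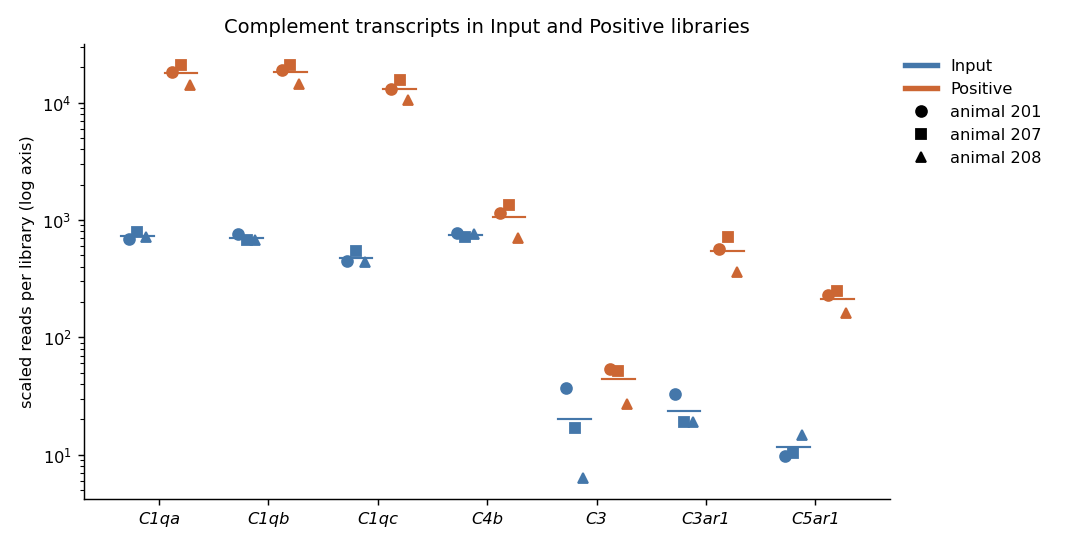
Scaled reads of each complement gene in every library, on a log axis, with Input in blue, Positive in orange, a symbol for each animal and a bar at the mean of 3 libraries. The C1q chains stood between 439 and 788 in Input and at 10573 or more in every Positive library, while the Positive values of C4b and C3 overlapped those of Input.

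C1q was the most abundant product of the group, and its 3 chains are needed in equal numbers in the assembled protein. C1qa had 684, 788 and 724 scaled reads in the Input of animals 201, 207 and 208, and 18442, 21037 and 14237 in Positive. C1qb had 766, 674 and 677 in Input, and 19151, 21140 and 14341 in Positive. C1qc had 451, 543 and 439 in Input, and 13165, 15539 and 10573 in Positive. For each chain the fractions were far from overlapping, the Positive library of animal 207 was the highest and that of animal 208 the lowest. The log2 fold change was 4.61 ± 0.14 (SE, n = 3 and 3) for C1qa, 4.69 ± 0.15 for C1qb and 4.77 ± 0.15 for C1qc, each with an adjusted p of 1.94e-10 by edgeR. Together the chains held 0.0123% ± 0.00058 (SD, n = 3) of the reads counted over the 15388 genes in Input and 0.300% ± 0.057 in Positive.

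The 3 chains lie side by side. C1qb (ENSMUSG00000036905, chr4:136880129-136886187), C1qc (ENSMUSG00000036896, chr4:136889804-136893065) and C1qa (ENSMUSG00000036887, chr4:136895917-136898803) are protein-coding genes on the minus strand of mm10, within 18675 bases of each other. Within an animal, the log2 ratio of Positive over Input (scaled reads plus 1) of C1qa minus that of C1qb was 0.11, -0.23 and -0.11, and their mean of -0.08 ± 0.17 (SD, n = 3 animals) was smaller than its spread. C1qb minus C1qc was -0.09 ± 0.19, likewise within its spread, with 2 animals of one sign and 1 of the other. C1qa minus C1qc was -0.17 ± 0.11, negative in 3 of 3 animals. In 21 pairs of the 7 genes compared, the smallest p that an exact two-sided sign-flip permutation test over 3 animals can give is 0.25, or 0.375 after adjustment over the pairs, so no pair could pass 0.05.

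Levels of different genes were compared only per kilobase of annotated exon. In Input the order was C1qa with 704 ± 50.3 (SD, n = 3) scaled reads per kilobase, C1qb with 649 ± 48.2, C1qc with 247 ± 29.3, C4b with 131 ± 5.40, C3ar1 with 5.44 ± 1.85, C5ar1 with 4.52 ± 1.04 and C3 with 3.88 ± 3.00. C1qa and C1qb overlapped there, as did the last 3. In Positive the order was the same, with 17217 ± 3300 scaled reads per kilobase for C1qa, 16738 ± 3213 for C1qb, 6780 ± 1286 for C1qc, 188 ± 58.8 for C4b, 127 ± 41.6 for C3ar1, 82.7 ± 18.2 for C5ar1 and 8.60 ± 2.90 for C3. In Positive, C1qa and C1qb again overlapped, and so did C4b and C3ar1 and then C3ar1 and C5ar1. Among 15326 genes with a length, C1qa ranked between 5 and 14 in the Positive libraries on this scale, and between 1019 and 1180 in the Input libraries. The level of C1qa over that of C1qb within a Positive library was 1.03 ± 0.019 (SD, n = 3). The ratio of C1qc to C1qb was 0.406 ± 0.016 over all annotated exons, but 0.651 by the longest transcript and 0.740 by coding length, so its distance from 1 depended on the length used.

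The promoters of C1qb and C1qc are shown because these neighbours rose by similar amounts, though C1qc was only the gene ranked 32 by likeness of profile to C1qb (a Euclidean distance of 0.36 on the log2 scale over the 6 libraries), and that of C3 because C3 was not called. Each line holds the 250 bases before the start site in RefSeq for GRCm38.p6, read 5′ to 3′ on the minus strand of chr4:136886201-136886450, chr4:136892915-136893164 and chr17:57228137-57228386. Capitals mark GAGGAA, the core of the site of PU.1, a transcription factor of myeloid cells, in C1qb and C1qc (there on the opposite strand, hence read as TTCCTC), and TTGCNNAA, a C/EBP motif, in C3.
C1qb: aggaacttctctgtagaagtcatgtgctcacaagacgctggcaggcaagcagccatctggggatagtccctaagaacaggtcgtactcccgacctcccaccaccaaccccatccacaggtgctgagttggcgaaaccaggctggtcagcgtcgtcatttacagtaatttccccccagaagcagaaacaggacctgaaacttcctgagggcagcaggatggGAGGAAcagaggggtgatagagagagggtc
C1qc: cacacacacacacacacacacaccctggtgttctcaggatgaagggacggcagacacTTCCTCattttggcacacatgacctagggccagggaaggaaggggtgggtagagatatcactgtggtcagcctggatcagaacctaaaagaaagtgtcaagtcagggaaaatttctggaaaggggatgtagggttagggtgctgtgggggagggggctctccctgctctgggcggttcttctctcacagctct
C3: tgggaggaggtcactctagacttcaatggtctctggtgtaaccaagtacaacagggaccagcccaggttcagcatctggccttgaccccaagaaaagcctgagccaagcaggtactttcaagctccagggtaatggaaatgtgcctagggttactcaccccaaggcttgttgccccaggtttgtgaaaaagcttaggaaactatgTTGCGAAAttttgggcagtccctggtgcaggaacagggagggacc

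The table of promoters matched C1qb, C1qc, C3, C3ar1 and C5ar1, and not C1qa or C4b. In windows from 250 bases before to 50 after the start, searched on both strands, GAGGAA was found 1 time in C1qb, 30 bases before the start, and 1 time in C1qc, 193 bases before it. The RefSeq starts of C1qc, C5ar1 and C3ar1 lie inside the spans given here for these genes, that of C3ar1 by only a few bases. Part of the bases before the start therefore lies within those spans, and distances are from the RefSeq start. It was in 28.3% of all 32851 promoter windows, so a match is common, and it was not in the windows of C3, C3ar1 or C5ar1. C3 held TTGCNNAA 45 bases before the start, which 10.8% of windows did, and C3ar1 held TGANTCA, the AP-1 motif, 22 bases before it, which 7.81% did. Of the other motifs searched, TATAAA and CCAAT had matches. TATAAA was in C3, from base 15 after the start, and in C3ar1, 235 bases before it (13.6% of windows). CCAAT was in C5ar1, 158 bases before the start (37.4%). The motif in capitals was chosen gene by gene, so it makes no contrast between genes. These matches describe letters and are not shown to be bound.

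The receptor genes were scarce in Input and rose with the C1q chains. C3ar1 (ENSMUSG00000040552, chr6:122847138-122856161), the receptor for the C3 fragment C3a, had 32.6, 18.8 and 18.9 scaled reads in the Input of animals 201, 207 and 208, and 566, 715 and 358 in Positive. C5ar1 (ENSMUSG00000049130, chr7:16246743-16259540), the receptor for the fragment C5a, had 9.81, 10.3 and 14.7 in Input, and 228, 249 and 160 in Positive. Neither gene had an Input library near a Positive one, and the Positive library of animal 208 was again the lowest. The log2 fold change by edgeR was 4.54 ± 0.29 (SE) for C3ar1, adjusted p 4.76e-08, and 4.17 ± 0.27 for C5ar1, adjusted p 5.1e-08. Both genes had been kept through Positive alone, so these values describe them and support nothing. Input counts were small, and the ratios varied more between animals than those of C1q, with an SD of 0.61 and 0.62 on the log2 scale over 3 animals. C1qa minus C5ar1 was 0.52 ± 0.36 (SD), positive in 3 of 3 animals, and C1qa minus C3ar1 was 0.12 ± 0.56, positive in 2. The pseudocount of 1 lowered the ratios of these scarce receptor genes more than that of C1qa.

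C4b, which encodes the C4 that acts after C1q, was called at a small fold change. C4b (ENSMUSG00000073418, chr17:34728380-34743882) had 770, 711 and 756 scaled reads in Input and 1152, 1357 and 703 in Positive. The Positive libraries of animals 201 and 207 lay above all Input libraries, and that of animal 208 lay below all of them. C4b was called at 0.52 ± 0.18 (log2, SE), adjusted p 0.0274 by edgeR, and it was higher in 2 of 3 animals. The call was lost with total counts (adjusted p 0.0521). It was also lost on leaving out the Input library of animal 201 (0.0673), 207 (0.0886) or 208 (0.0639), or the Positive library of animal 201 (0.0685) or 207 (0.145, log2 fold change 0.32). The call was kept in 8 of 14 alternatives. Among them were the animal as a block (0.48, adjusted p 0.00982 by edgeR) and DESeq2 (0.52, adjusted p 0.00802). Without the Positive library of animal 208 the log2 fold change was 0.75, adjusted p 1.2e-05 by edgeR.

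Reads of C4b are uncertain in another way. Its near copy C4a shares sequence with it, and 34.6% of the distinct windows of 50 bases in C4b transcripts, the read length before trimming, also occur in C4a transcripts. At 42 bases, the length after the fixed trimming of both ends, 39.9% did. C4a had 27.1, 24.1 and 26.2 scaled reads in Input and 38.9, 22.0 and 22.1 in Positive, and its log2 fold change was 0.09 ± 0.31 (SE; adjusted p 0.841 by edgeR). How reads that match both were split was not stated for these files.

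C3, the component at which the pathways of complement meet, had the lowest level per length of the group in each Positive library, and in Input overlapped C5ar1 and C3ar1. C3 (ENSMUSG00000024164, chr17:57203970-57228136) had 36.7, 16.9 and 6.29 scaled reads in the Input of animals 201, 207 and 208, and 53.6, 52.1 and 27.0 in Positive. The value was higher in Positive within each animal, but the Positive library of animal 208 lay below the Input library of animal 201, so the fractions overlapped. C3 was not called, at a log2 fold change of 1.14 ± 0.46 (SE) and adjusted p 0.0571 by edgeR. With the animal as a block, which compares fractions within each mouse, it was 1.24 with an adjusted p of 0.00695 by edgeR. Leaving out the Input library of animal 201 gave 1.90 (adjusted p 0.00925), leaving out the Positive library of animal 208 gave 1.40 (0.0161), and leaving out the Input library of animal 208 gave 0.73 (0.185). C3 had been kept through Positive alone, so its calls under these alternatives describe it and support nothing.

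**Figure D2:**
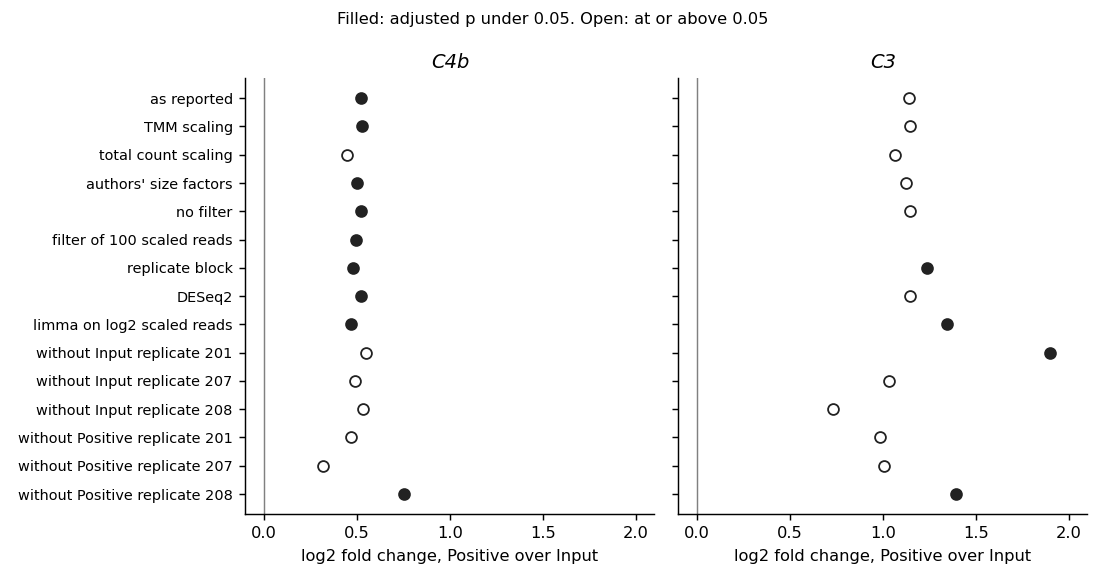
Log2 fold change of C4b (left) and C3 (right), Positive over Input, as reported and under each alternative scaling, filter, tool or left-out library, filled where the adjusted p was under 0.05. C4b stayed between 0.32 and 0.75 and lost its call in 6 of 14 alternatives, and C3 stayed between 0.73 and 1.90 and was called in 4 of 13, since 1 filter removed it. C3 had been kept through Positive alone, so its calls are description only.

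The fold changes of C4b and C3 stood apart from the others within each animal. C1qb minus C4b was 4.06, 4.04 and 4.51 on the log2 scale in animals 201, 207 and 208, and C1qb minus C3 was 4.11, 3.40 and 2.46. C3 minus C4b was -0.05, 0.64 and 2.05, so these genes were not ordered in the same way in every animal. Per kilobase, C1qb was 4.95 ± 0.26 (SD, n = 3) times C4b in Input and 91.8 ± 13.3 times C4b in Positive.

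The members were set beside markers of the cells that the Positive fraction could hold. The difference between a gene's log2 ratio and the median of the 10 microglial markers in the same animal was -0.02 ± 0.19 (SD, n = 3) for C1qa, 0.05 ± 0.06 for C1qb, 0.14 ± 0.18 for C1qc and -0.14 ± 0.39 for C3ar1, all within their spread. It was -0.54 ± 0.47 for C5ar1, below the markers in 3 of 3 animals. C5ar1 had a mean of only 11.6 scaled reads in Input, so the pseudocount of 1 lowered its ratio more than those of the markers. For C3 it was -3.27 ± 0.77 and for C4b -4.15 ± 0.33, also below in 3 of 3. Markers of border macrophages moved too, since all 7 were called higher, with a median log2 fold change of 4.15, and 3 of them had been kept through Positive alone. Their summed level was 198 to 255 scaled reads in Input and 2644 to 5790 in Positive. That of the microglial list was 4427 to 4775 in Input and 86076 to 126783 in Positive, and since the lists hold different genes the sums compare fractions and not lists. None of the defining markers of either list was at 0, and the part of border macrophages in the values of the complement genes was not tested.

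**Figure D3:**
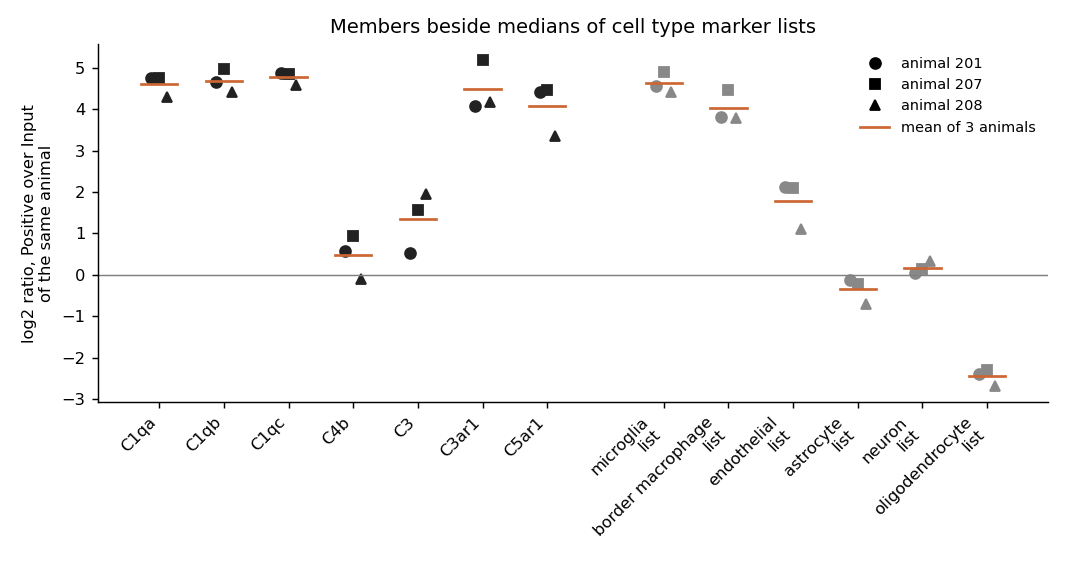
Log2 ratio of Positive over Input within each animal for the complement genes (black) and the median ratio of 6 marker lists (grey), with a bar at the mean of 3 animals. The C1q chains and receptors sat near the microglial and border macrophage lists, between 3.36 and 5.18 in every animal, and C4b between -0.11 and 0.93.

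Markers of further cell types are given beside C4b. Of 9 endothelial markers, 8 were called higher, with a median log2 fold change of 1.82, and their summed level was 9497, 7556 and 4693 scaled reads in the Positive libraries of animals 201, 207 and 208, so animal 208 was lowest for them as for C4b. The Positive library of animal 208 had the lowest sum of the Positive libraries in every other non-neuronal marker list tested as well, so this is not particular to endothelial markers. Astrocyte markers had a median of -0.35, with 1 of 9 called higher and 4 lower, and oligodendrocyte markers had a median of -2.44, with 9 of 9 lower. Neuronal markers had a median of 0.14, with 3 of 8 called higher. Of 4 monocyte markers 1 was tested, Ly6c2, and it was called higher, by a log2 of 1.61 ± 0.44 (SE), adjusted p 0.00986 by edgeR. Its mean went from 7.29 ± 5.08 to 22.6 ± 2.0 scaled reads (± is the SD over 3 libraries). Ly6c2 had been kept through Positive alone, so its call is description only. None of 5 neutrophil markers was in the table. The part of these cells in the values of C4b was not tested.

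The lower library of animal 208 touched every one of the 7 genes. Its value was below the mean of the other Positive libraries by 0.44 to 0.94 on the log2 scale (-0.44 for C1qc and -0.94 for C3). Without it, the log2 fold change was 4.75 for C1qa, 4.84 for C1qb, 4.91 for C1qc, 4.77 for C3ar1 and 4.34 for C5ar1. These 5 genes were called under all 14 alternatives, with log2 fold changes between 4.04 and 4.91. Among them, C3ar1 and C5ar1 had been kept through Positive alone, so their calls are description only.

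Genes with the most similar profile were found over the 6 libraries, by the Euclidean distance between log2 values centred on each gene's mean, among 12121 genes (12122 for C3) whose mean was 100 scaled reads or more. The nearest to C1qa was Csf1r, the receptor that microglia need to survive, at 0.17 (log2), followed by Hcls1 and Lpxn. The nearest to C1qb were Clec5a at 0.12, Ctss and Mpeg1, and the nearest to C1qc were Hcls1 at 0.15, Cx3cr1 and Lag3. Olfml3 at 0.38, Tifab and Pld4 were nearest to C3ar1, and P2ry6 at 0.27, Abcc3 and Tmem173 to C5ar1. All of these had log2 fold changes between 4.06 and 4.80. C4b was nearest to Cpt1a at 0.14, Selenbp1 and Flna, with log2 fold changes of 0.46 to 0.49. C3 had no near neighbour among the genes searched, since the closest, Dok3, was at 1.15, followed by Col6a3 and Anxa4. C3 itself had a mean of 32.1 scaled reads, so genes as scarce as C3 were not searched. The distance is set mostly by the step between fractions, so it says which genes moved by the same amount and no more.

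The other genes of the cascade were taken from lists of 49 genes, of which 24 were in the table and tested. In them, 9 were called higher, 8 lower and 7 were not called, beside 24% of all genes called higher and 22% lower, with a median log2 fold change of -0.21 against -0.01 for all genes. Of 15 genes of the classical and lectin pathways 6 were tested. Fcna, a ficolin that recognizes sugars, was called higher by 3.74 ± 0.34 (log2, SE), from 9.63 ± 3.78 (SD, n = 3) to 131 ± 42.3 scaled reads, and had been kept through Positive alone. C1ra, a protease of the C1 complex, was called higher at 0.82 ± 0.29, adjusted p 0.0319 by edgeR, and this call was lost with DESeq2 (0.0627) and without the Input library of animal 201 (0.0908) or 208 (0.116) or the Positive library of animal 201 (0.0843) or 207 (0.105). C2, the partner of C4 in the C3 convertase, was not called at 0.82 ± 0.35, adjusted p 0.0699. It was called without the Positive library of animal 201 (0.038) or 208 (0.018), and it overlaps Gm20547 on the same strand over 19439 bases, so its reads are uncertain. Masp1 and Colec12 were not called either, at -0.26 ± 0.24 and -0.16 ± 0.26.

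**Figure D4:**
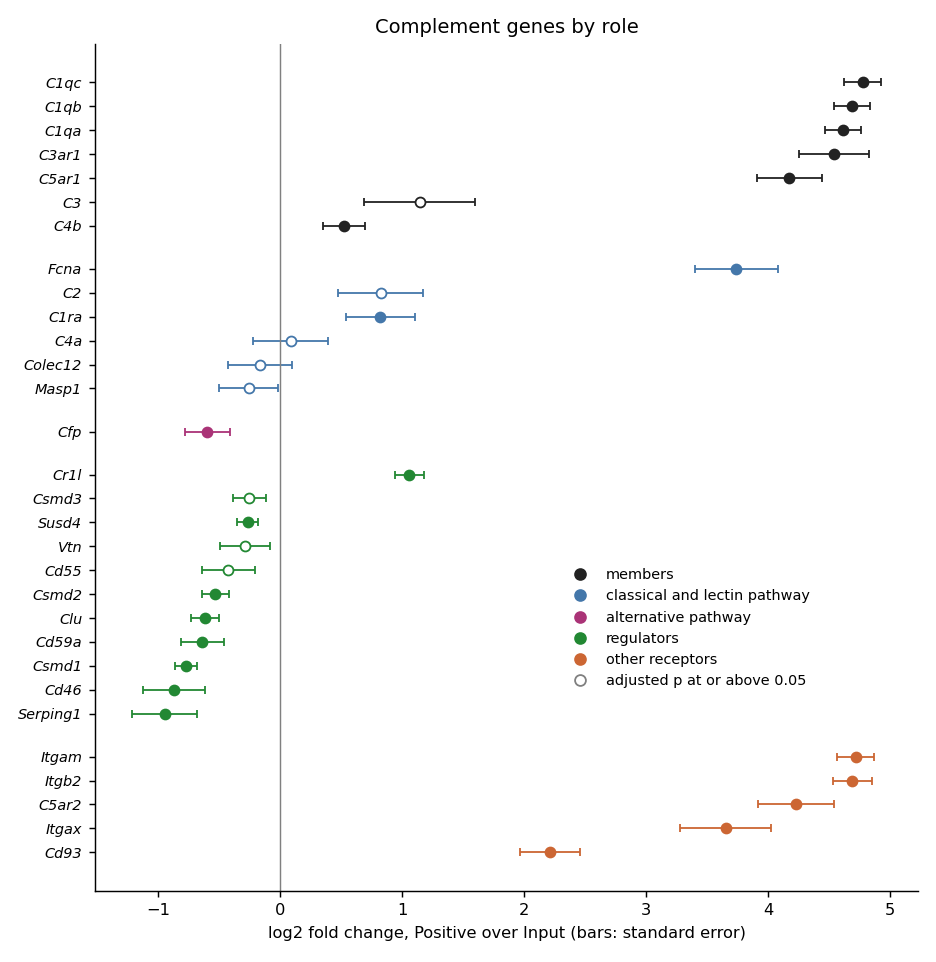
Log2 fold change of tested complement genes that the text names, Positive over Input, with its standard error, grouped by role and open where the adjusted p was 0.05 or more. The receptors, the C1q chains and Fcna lay above 2, and most regulators lay below 0.

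The pathways that amplify and end the cascade were hardly measured. Of 3 genes of the alternative pathway only Cfp, which encodes the stabilizing protein properdin, was tested. It had 192, 232 and 206 scaled reads in the Input of animals 201, 207 and 208 and 150, 164 and 102 in Positive, or -0.60 ± 0.18 (SE) as log2 fold change, adjusted p 0.0174 by edgeR, and this call was lost without the Input library of animal 207 (0.0761). Of 7 terminal components, which build the membrane attack complex, 0 were in the table. Genes outside the table were not analysed here.

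Regulators keep complement in check on cells and in fluid. Of 17 genes 12 were tested, 2 were called higher and 7 lower, beside 24% and 22% of all genes. Cr1l, which encodes a membrane regulator of C3 and C4, was called higher with a log2 fold change of 1.06 ± 0.12 (SE). Clu, which encodes a soluble inhibitor of the terminal pathway, was called lower at -0.62 ± 0.12, from 12569 ± 213 (SD, n = 3) to 8205 ± 1590 scaled reads. The large membrane proteins Csmd1 and Csmd2 were called lower at -0.77 ± 0.09 and -0.53 ± 0.11, and Csmd3 was not called at -0.25 ± 0.13. Cd59a, which blocks the membrane attack complex, was lower at -0.64 ± 0.18, Serping1, the C1 inhibitor, at -0.95 ± 0.26, Cd46 at -0.87 ± 0.25 and Susd4 at -0.27 ± 0.09. Vtn at -0.29 ± 0.21 and Cd55 at -0.43 ± 0.22 were not called. Without the Input library of animal 201, the calls of Cd59a (adjusted p 0.0538 by edgeR), Serping1 (0.0512), Cd46 (0.0683) and Susd4 (0.0568) were lost, that of Cd46 was also lost without the Positive library of animal 207 (0.0554), and that of Susd4 without any library but the Positive of animal 208 (0.0538 to 0.0923). Vtn was called lower without the Positive library of animal 201 (-0.60, 0.0121).

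Receptors other than C3ar1 and C5ar1 bind complement proteins or their fragments on phagocytes and other cells. Of 7 genes 5 were tested and all 5 were called higher, beside 24% of all genes. Itgam and Itgb2, the chains of complement receptor CR3, which binds a fragment of C3, had log2 fold changes of 4.72 ± 0.15 (SE) and 4.69 ± 0.16. Itgam had 291 ± 16.4 scaled reads (SD, n = 3) in Input and 7667 ± 1689 in Positive. C5ar2, the other receptor for C5a, had 4.23 ± 0.31, and Itgax, the partner of Itgb2 in CR4, had 3.65 ± 0.37, both kept through Positive alone. Cd93, once named as a C1q receptor, had 2.21 ± 0.24, the smallest of the 5.

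Proteins with a C1q-like domain that are no part of complement were set beside the C1q chains. Of 21 such genes 14 were tested, 3 were called higher and 6 lower, beside 24% and 22% of all genes, with a median log2 fold change of -0.19. C1ql2 and C1ql3, synaptic proteins, had log2 fold changes of 0.49 ± 0.14 (SE, called) and 0.12 ± 0.10 (not called), and C1ql1 and Cbln1 were lower at -1.85 ± 0.24 and -0.99 ± 0.19. Cbln2, of the same family as Cbln1, was called higher at 0.64 ± 0.16, in 3 of 3 animals. Mmrn2, which is known from endothelial cells, was the highest of the list at 2.18 ± 0.39. Its log2 ratios within animals 201, 207 and 208 were 3.58, 2.44 and 0.62, and without the Input library of animal 208 its log2 fold change was 2.79. The call of C1ql2 was lost without the Input library of animal 201 (adjusted p 0.0692 by edgeR).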

How the data were processed

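Directional poly(A) libraries were trimmed, aligned to mm10 and quantified per gene in Strand NGS by the authors. The deposited raw columns hold expected counts, which need not be whole, for genes where all libraries of 1 fraction or both had at least 20 reads. The deposited normalized columns are log2 values after DESeq scaling by the authors, centred on Input, and only their size factors were used, as an alternative. No per-sample column was left unmapped. Even values were in excess among small whole counts (64.7% to 69.3% of those under 60 reads), as they would be if mates were counted singly. How mates were counted was not settled, and reads carried no molecular identifiers, so precision rests on the spread between animals.

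Expected counts were rounded and tested in R 4.3.3 with edgeR 4.0.16 (quasi-likelihood, RLE scaling, with no block for the animal, since the study's methods name no pairing for sequencing data), on genes where all libraries of 1 fraction or both had over 20 scaled reads, a filter that removed 44. Ratios within an animal used a pseudocount of 1. Exon lengths came from GENCODE vM21. Alternatives used limma 3.58.1 and DESeq2 1.42.0. In simulated data for this comparison (15344 genes, of which 200 were changed), 89.6% of genes changed by a log2 of 1 and 99.4% of those changed by 2 were called. These rates are averages over all levels of expression, with far fewer genes changed than were called here. They do not give the rate for a gene as scarce as C3. Input and Positive of a number came from the same animal, and deviations from the group means correlated at 0.19, 0.06 and 0.12 in animals 201, 207 and 208.

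The 7 genes and all lists were chosen with earlier results of these data known. Named genes were the 7 genes, tested genes of the complement and C1q-domain lists, the 3 genes nearest to each of the 7, and up to 2 of each marker list. For the complement lists, values were planned for genes whose mean was 100 scaled reads or more. Values are also given for C4a, C1ra, C2, Masp1, Fcna, Cd46, Cd55 and Itgax, whose means were below that. Not every value under this rule is reported here.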

Additional observations from a re-analysis of the deposited data

How the results depend on the processing

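The test was repeated under 14 alternatives: other scalings, filters and tools, the animal as a replicate block, and 6 fits that left out 1 library each. C1qa, C1qb, C1qc, C3ar1 and C5ar1 kept their direction and their call in all 14. C3ar1 and C5ar1 were in the data through Positive alone in every alternative, so their calls there describe them and support nothing. C4b had a log2 fold change of 0.45 with total counts, where its call was lost, and 0.32 to 0.75 with 1 library left out. C3, not called as reported, was called with limma at 1.35 and with the replicate block at 1.24, and had 0.73 to 1.90 with 1 library left out. C3 was likewise in the data through Positive alone, so its calls describe it and support nothing. The block changed no other call among the 7 genes or the complement and C1q-domain lists, and 7572 genes were called with it, against 7053 as reported. With 1 library left out, 5 to 7 of the 7 genes were called higher and 4 to 8 genes of the complement lists lower, against 8 as reported, the count of 4 being that without the Input library of animal 201.

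The ratio of C1qc to C1qb per length moved from 0.406 to 0.651 by the longest transcript and 0.740 by coding length. Signs changed only in values close to 0 or smaller than their spread. With 1 animal left out, C1qa minus C1qb ranged from -0.17 to 0.0021 (without animal 207) and C1qa minus C3ar1 from -0.16 (without animal 201) to 0.40. With 1 library left out, C4a ranged from -0.24 (without Positive 201) to 0.23, Colec12 from -0.56 to 0.13 (without Positive 208), C1ql3 from -0.0052 (without Positive 208) to 0.19, and C1qtnf1 from -0.12 to 0.0019 without Input 207 and 0.045 without Positive 207. The median of the mural marker list, -0.21 as reported, was 0.039 with the filter of 100 scaled reads, and with 1 library left out it ranged from -0.34 to 0.076 without the Input library of animal 201 and 0.094 without the Positive library of animal 208. The cause was not tested. The filter of 100 scaled reads removed C3, so it gave no value there. C3, C5ar1 and C3ar1 had few Input reads, and this depth limits their fold changes.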
